A study of Mus musculus with 13 samples.

Results

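The 10 genes described here are the Toll-like receptors Tlr1, Tlr2, Tlr3, Tlr4, Tlr5, Tlr6, Tlr7 and Tlr9, the co-receptor Cd14 and the adaptor Myd88. They were found by gene symbol in the platform annotation, which gave them 16 probe sets. Where a gene had several, the one of highest average signal on the 13 arrays stood for it, and the 10 genes stand among 18193 genes with a value. The samples were cultured prostate progenitor/stem cells, which the labels give as wild-type B1/6; 127/SVEV, from 10 wk old mice, at passage 22. At 70% confluency the dishes received 100 nM 1,25(OH)2D3 (1,25D, the hormonal form of vitamin D) or the vehicle that carried it, 0.1% ethanol. Exposure lasted 6 h, or 48 h with treatment every 24 h. The groups were 1,25D 6 h (3 arrays), vehicle 6 h (3 arrays), 1,25D 48 h (4 arrays) and vehicle 48 h (3 arrays), each measured on Affymetrix arrays as log2 signal. The labels do not say whether arrays of a group came from separate cultures, so p-values measure only the spread between these arrays, which may be technical. No group received a microbial ligand, so the values are transcript levels of the receptors and not their activity.

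Toll-like receptors are membrane proteins that recognise microbial molecules and start inflammatory gene expression. Tlr2 pairs with Tlr1 or Tlr6 at the cell surface to recognise bacterial lipoproteins, Tlr4 recognises lipopolysaccharide, Tlr5 recognises flagellin, and Tlr3, Tlr7 and Tlr9 recognise nucleic acids in endosomes. Cd14 binds lipopolysaccharide and lipoproteins and hands them to Tlr4 and Tlr2. Myd88 is the adaptor through which all of these receptors except Tlr3 signal to NF-kB, the transcription factor of many inflammatory genes, and epithelia use the same receptors to sense microbes at their surface.

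Tlr2 was lower with 1,25D at both times, Myd88 was lower with 1,25D at 48 h, and no other member was called for the hormone. With time in vehicle, Cd14, Tlr2, Tlr4 and Myd88 rose. A gene was called when its adjusted p from limma was under 0.05, with Benjamini-Hochberg adjustment over all 45037 probe sets, and every adjusted p below is of that kind.

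The promoters of Tlr2 and Myd88 are shown because these were the genes called for the hormone. RefSeq promoter windows of GRCm38.p6, 250 bases before to 50 bases after a gene's start, were matched for 7 of the 10 members in 9 windows. The Tlr2 window lies at chr3:83841559-83841858 and the Myd88 window at chr9:119339969-119340268, both on the minus strand. Both are written 5′ to 3′ along the gene. Capitals mark motif matches on either strand, those of NF-kB in Tlr2 and those of GAS and ISRE, the elements bound by STAT and IRF proteins, in Myd88.
Tlr2: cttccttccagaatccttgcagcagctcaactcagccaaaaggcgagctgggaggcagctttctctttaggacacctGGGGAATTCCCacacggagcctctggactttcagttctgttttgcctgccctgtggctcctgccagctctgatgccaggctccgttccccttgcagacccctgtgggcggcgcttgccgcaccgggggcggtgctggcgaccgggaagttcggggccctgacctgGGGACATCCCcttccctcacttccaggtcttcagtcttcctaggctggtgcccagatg
Myd88: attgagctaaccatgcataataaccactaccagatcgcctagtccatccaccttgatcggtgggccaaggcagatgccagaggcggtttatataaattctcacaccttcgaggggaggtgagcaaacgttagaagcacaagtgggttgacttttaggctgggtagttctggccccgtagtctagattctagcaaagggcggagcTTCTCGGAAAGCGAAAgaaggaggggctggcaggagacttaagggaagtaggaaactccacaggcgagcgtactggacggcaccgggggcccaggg

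In the Tlr2 window NF-kB matches overlapped on both strands between positions -173 and -163, and another match spanned -8 to 2 on both strands, counted from the gene's start. In the Myd88 window GAS (TTCNNNGAA) matched at -46 to -38 on both strands and overlapped ISRE (GAAANNGAAA), which matched at -40 to -31. NF-kB also matched once in the Tlr3 window, and GAS or ISRE matched in windows of Tlr1 and Tlr6. Of 32851 promoter windows of the same length, 8.46% held an NF-kB match, 8.3% a GAS match and 3.44% an ISRE match. The DR3 motif of the vitamin D receptor matched in 0 of the 9 windows and in 0.0396% of all windows. A match describes letters in the window and is not evidence of binding.

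The cells carried markers of prostate epithelium. The basal keratins Krt5 and Krt14 stood at or above the 98.8th percentile of probe sets on every array, and Trp63, the basal transcription factor, between the 77.8th and 91.1st. The luminal keratins Krt8 and Krt18 were also bright, whereas Pbsn, the secretory protein probasin of the mature luminal cell, stood between the 3.3rd and 8.8th percentile. Krt8 and Krt18 were lower with 1,25D at 48 h, by -0.43 (limma adjusted p = 0.000158) and -0.34 (limma adjusted p = 0.000503). The panleukocyte marker Ptprc stood between the 4.8th and 32.2nd percentile. Of the 5 stroma markers measured, Vim stood between the 93.7th and 97.8th percentile and Acta2 between the 61.8th and 68.2nd. Col1a1, Col1a2 and Pdgfra stood between the 20.9th and 53.3rd. The 3 endothelial markers stood between the 25.7th and 52.9th. Vehicle 6 h replicate 1 and 1,25D 48 h replicate 4 stood apart from the other arrays along the second principal component, which held 18.7% of the variance. The 1,25D differences of Tlr2 at both times, and of Tlr1, Tlr7, Tlr9 and Myd88 at 48 h, are given with and without these arrays below. So are the listed genes whose 1,25D call at 6 h or 48 h moved.

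Tlr2, the lipoprotein receptor, had the largest 1,25D difference of the members at both times. At 6 h its log2 signal was 7.30, 7.83 and 7.28 with 1,25D, against 8.51, 9.56 and 8.93 with vehicle. All 1,25D arrays lay below all vehicle arrays. The means were 7.47 ± 0.31 with 1,25D and 9.0 ± 0.53 with vehicle (SD, n = 3 each). The log2 difference was -1.53 (SE 0.25, 95% interval -2.07 to -0.99), 2.89-fold lower with 1,25D, with an adjusted p of 0.00822 from limma. Tlr2 was thus the 1 of 10 members called lower at 6 h, where 0.165% of all genes were called lower. In bulk samples, fewer cells that carry a transcript and less of it per cell cannot be told apart.

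At 48 h Tlr2 read 9.02, 9.56, 8.93 and 9.0 with 1,25D, against 10.41, 10.06 and 10.05 with vehicle. The groups again did not overlap, and 1,25D replicate 2 was the highest of its group. The means were 9.13 ± 0.29 with 1,25D (SD, n = 4) and 10.17 ± 0.21 with vehicle (SD, n = 3). The log2 difference was -1.04 (SE 0.23, 95% interval -1.55 to -0.54), 2.06-fold lower with 1,25D, with an adjusted p of 0.0454 from limma. This call was near the threshold and was lost in several settings, among them the omission of any 1 vehicle 48 h array, with an adjusted p of up to 0.265. At 6 h the call was lost without 1,25D replicate 1 or 3, with an adjusted p of up to 0.0631, and when only the 2 groups compared were fitted, with an adjusted p of 0.0966. Without the 2 arrays that stood apart, the Tlr2 difference was -1.78 at 6 h (limma adjusted p = 0.00202) and -1.0 at 48 h (limma adjusted p = 0.0265).

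**Figure D1:**
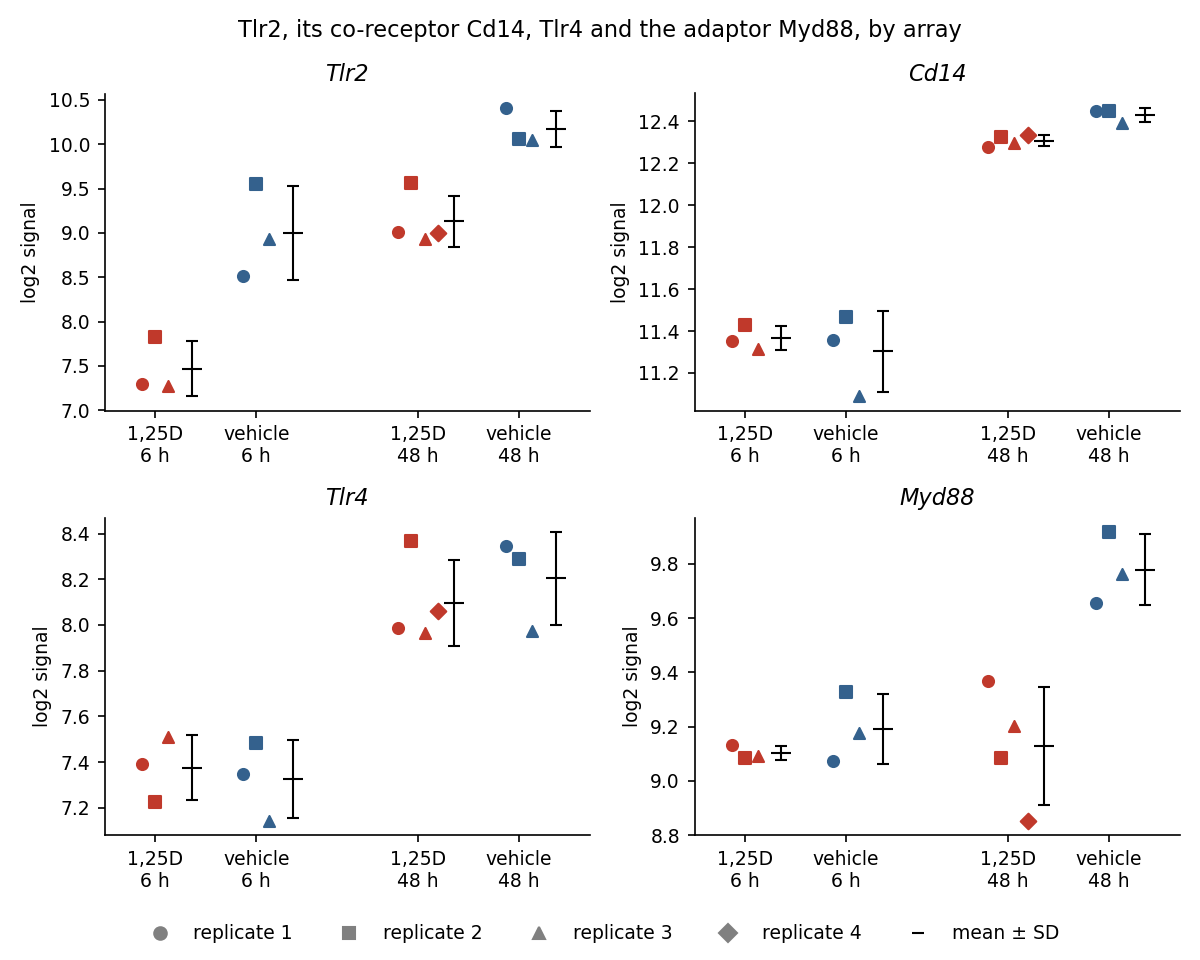
Log2 signal (vertical axes, which start above 0 and differ between panels) of Tlr2, Cd14, Tlr4 and Myd88 on each of the 13 arrays, with red points for 1,25D, blue points for vehicle, shapes for replicates and black bars for the group mean ± SD. Tlr2 lies lower with 1,25D at both times, Myd88 is highest in vehicle 48 h, and Cd14 and Tlr4 separate by time.

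Tlr2 was therefore ordered as vehicle 48 h, then 1,25D 48 h and vehicle 6 h, then 1,25D 6 h. The middle groups, 1,25D 48 h and vehicle 6 h, together spanned 8.51 to 9.56 and overlapped, and the difference between them was not tested. An exact two-sided permutation test of the Tlr2 means gave p = 0.1 for 3 arrays against 3 and p = 0.0571 for 4 against 3, which is as low as each design can go.

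Tlr1 and Tlr6, the partners of Tlr2, were not called at either time. Tlr1 was dim on these arrays, with a mean at the 16.8th percentile of probe sets. It ranged from 4.05 to 4.25 with 1,25D and from 4.09 to 4.16 with vehicle at 6 h, and from 4.07 to 4.56 with 1,25D and from 4.06 to 4.31 with vehicle at 48 h. Tlr6, at the 52.4th percentile, ranged from 5.6 to 5.93 with 1,25D and from 5.72 to 5.81 with vehicle at 6 h, and from 5.68 to 5.80 with 1,25D and from 5.67 to 5.72 with vehicle at 48 h. The 95% intervals of the 1,25D differences ran from -0.24 to 0.28 at 6 h and -0.17 to 0.32 at 48 h for Tlr1. For Tlr6 they ran from -0.23 to 0.29 at 6 h and -0.20 to 0.29 at 48 h.

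Cd14, the co-receptor, was the brightest member relative to all probe sets, at the 98.3rd percentile. At 6 h it read 11.35, 11.43 and 11.32 with 1,25D, against 11.36, 11.47 and 11.09 with vehicle, and the groups overlapped. At 48 h it read 12.28, 12.32, 12.30 and 12.34 with 1,25D, against 12.45, 12.45 and 12.39 with vehicle. Every 1,25D array lay below every vehicle array at 48 h, but the log2 difference of -0.12 (95% interval -0.29 to 0.05) was not called. The interval at 6 h ran from -0.12 to 0.24.

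Tlr4, the lipopolysaccharide receptor, read 7.39, 7.23 and 7.51 with 1,25D at 6 h, against 7.35, 7.48 and 7.14 with vehicle. At 48 h it read 7.99, 8.37, 7.97 and 8.06 with 1,25D, against 8.35, 8.29 and 7.97 with vehicle. The groups overlapped at both times, and the 1,25D differences were 0.05 at 6 h (95% interval -0.29 to 0.39) and -0.11 at 48 h (95% interval -0.43 to 0.21). The other 3 probe sets of Tlr4 were not called for 1,25D either.

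Tlr5, the flagellin receptor, ranged from 6.69 to 6.99 with 1,25D and from 6.43 to 6.96 with vehicle at 6 h. Its range at 48 h was from 6.99 to 7.42 with 1,25D and from 7.14 to 7.33 with vehicle. Its 1,25D differences were 0.09 at 6 h (95% interval -0.28 to 0.46) and -0.10 at 48 h (95% interval -0.45 to 0.24), and neither was called.

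Among the nucleic acid receptors, Tlr3, which senses double-stranded RNA, stood at the 90.6th percentile and Tlr7 and Tlr9 lower, at the 34.5th and 67.4th. Tlr3 at 48 h ranged from 9.61 to 9.81 with 1,25D and from 9.84 to 9.97 with vehicle. These groups did not overlap, but the difference of -0.19 (95% interval -0.47 to 0.10) was not called. At 6 h Tlr3 ranged from 9.37 to 9.87 with 1,25D and from 9.34 to 9.72 with vehicle. A second Tlr3 probe set differed by 0.42 at 6 h (limma adjusted p = 0.781) and -0.22 at 48 h and was not called.

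Tlr7, a receptor of single-stranded RNA, read 4.79, 4.75 and 4.56 with 1,25D at 6 h, against 5.11, 4.83 and 4.79 with vehicle. The closest arrays of the groups were nearly level, and the difference of -0.21 (95% interval -0.51 to 0.09) was not called. At 48 h Tlr7 ranged from 4.84 to 5.28 with 1,25D and from 4.74 to 4.97 with vehicle. Tlr9, a receptor of unmethylated CpG DNA, ranged from 6.83 to 6.92 with 1,25D and from 6.60 to 7.32 with vehicle at 6 h. Its range at 48 h was from 6.69 to 7.94 with 1,25D and from 6.65 to 7.03 with vehicle. The top values of Tlr7 and Tlr9 at 48 h, and that of Tlr1, came from 1,25D replicate 4, 1 of the arrays that stood apart. With all arrays the 1,25D differences at 48 h were 0.08 for Tlr1, 0.12 for Tlr7 and 0.24 for Tlr9. Without the 2 arrays that stood apart they were -0.04 for Tlr1, 0.01 for Tlr7 and -0.06 for Tlr9, and none was called either way.

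**Figure D2:**
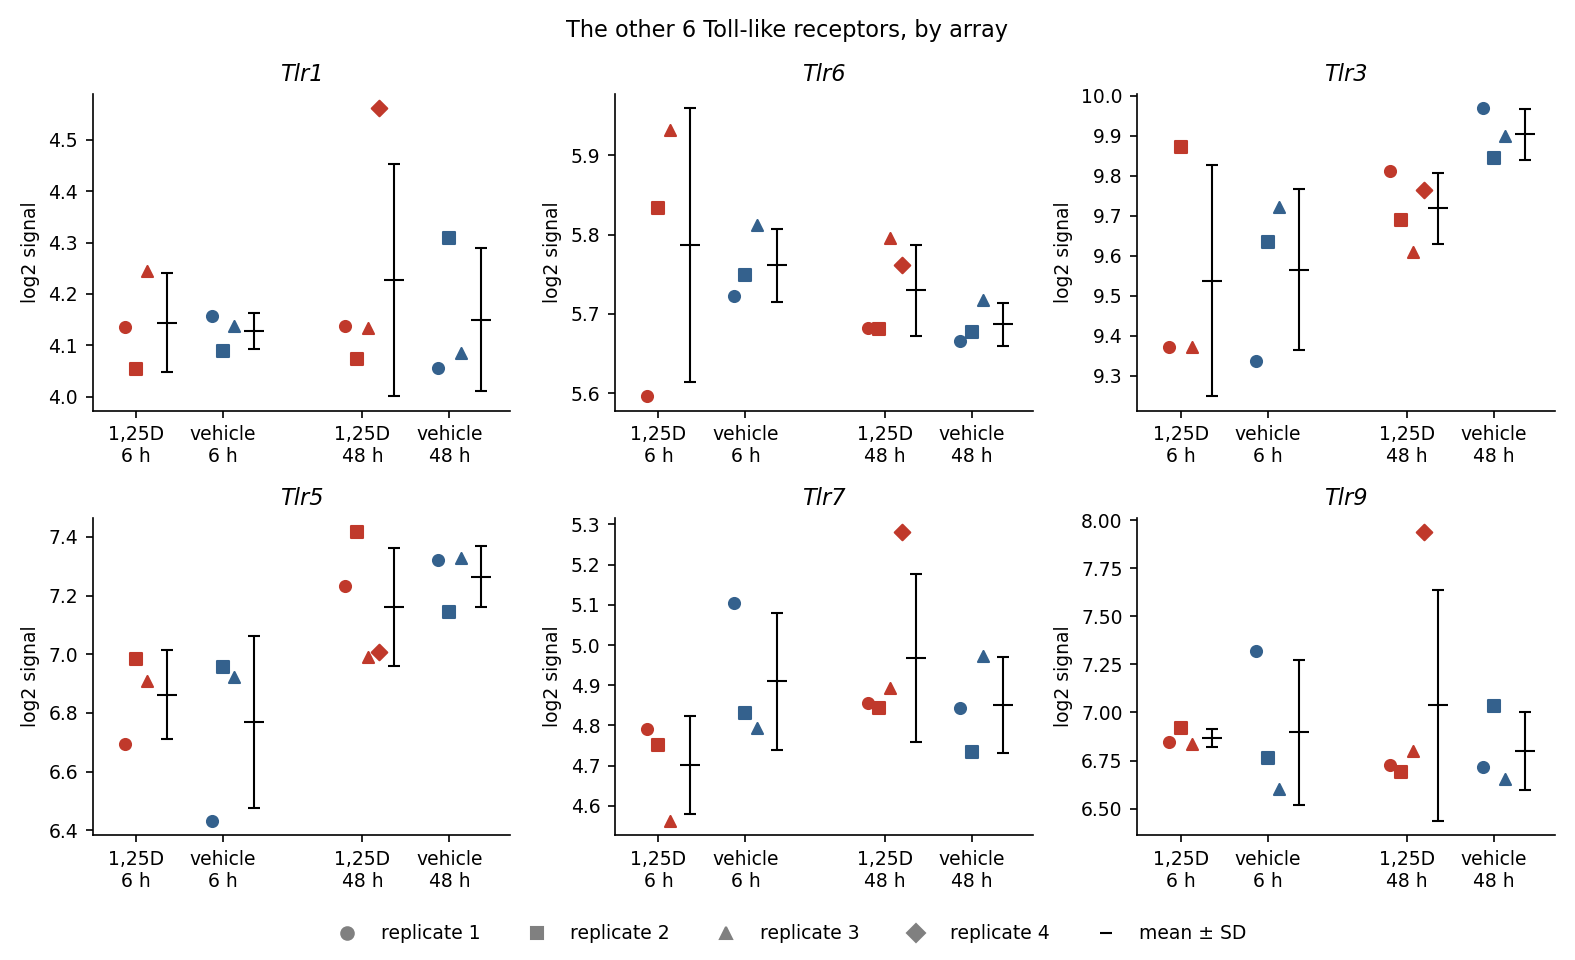
Log2 signal (vertical axes, which start above 0 and differ between panels) of the other 6 receptors on each of the 13 arrays, with red points for 1,25D, blue points for vehicle, shapes for replicates and black bars for the group mean ± SD. None of these was called for 1,25D at 6 h or 48 h, and 1,25D 48 h replicate 4 is the highest point for Tlr1, Tlr7 and Tlr9.

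Myd88, the shared adaptor, did not separate at 6 h. It read 9.13, 9.08 and 9.09 with 1,25D, against 9.07, 9.33 and 9.18 with vehicle, and the difference of -0.09 (95% interval -0.38 to 0.20) was not called. At 48 h it read 9.37, 9.08, 9.20 and 8.85 with 1,25D, against 9.66, 9.92 and 9.76 with vehicle. All 4 arrays with 1,25D lay below all 3 with vehicle. The means were 9.13 ± 0.22 with 1,25D (SD, n = 4) and 9.78 ± 0.13 with vehicle (SD, n = 3). The log2 difference was -0.65 (SE 0.13, 95% interval -0.92 to -0.38), 1.57-fold lower with 1,25D, with an adjusted p of 0.0182 from limma. The exact two-sided permutation p was 0.0571, the smallest that 4 arrays against 3 allow.

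The Myd88 call was lost without vehicle 48 h replicate 2 (adjusted p = 0.129 in limma) or replicate 3 (adjusted p = 0.0816 in limma), and when only the 2 groups compared were fitted (adjusted p = 0.0717 in limma). The luminal keratins Krt8 and Krt18, given above, were lower in the same comparison, and their part in the result was not tested. Without the 2 arrays that stood apart it was -0.56, with an adjusted p of 0.0206 from limma. The order of its levels put vehicle 48 h first, and the other 3 groups overlapped between 8.85 and 9.37.

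At 48 h, 2 of 10 members were thus called lower, Tlr2 and Myd88, where 0.951% of all genes were called lower. In limma 0 of 10 were called higher with 1,25D at either time, where 0.687% of all genes were at 6 h and 1.43% at 48 h. At an unadjusted p under 0.05 the members found were the same, Tlr2 at 6 h and Tlr2 and Myd88 at 48 h, where 7.01% of all genes passed at 6 h and 10.3% at 48 h. Non-overlapping arrays, lower with 1,25D, were found for 2 of 10 members at 6 h (Tlr2 and Tlr7), against 4.51% of all genes, and for 4 of 10 at 48 h (Cd14, Myd88, Tlr2 and Tlr3), against 7.11%. These counts depend on the probe set used. On the other Tlr7 probe sets the groups overlapped at 6 h, as they did on the second Tlr3 probe set at 48 h. The median 1,25D difference of the members was -0.005 at 6 h and -0.106 at 48 h, against -0.02 and -0.002 over all genes.

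The test of the difference between the 1,25D responses at 48 h and at 6 h called 0 of 10 members in limma, where 0.632% of all genes were called. Myd88 alone had an unadjusted p under 0.05, as did 7.23% of all genes. Its response at 48 h minus that at 6 h was -0.56 (95% interval -0.96 to -0.16), with an adjusted p of 0.51. For Tlr2 the difference was 0.49 (95% interval -0.25 to 1.22, limma adjusted p = 0.985). The Myd88 response was therefore not shown to differ between the times.

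**Figure D3:**
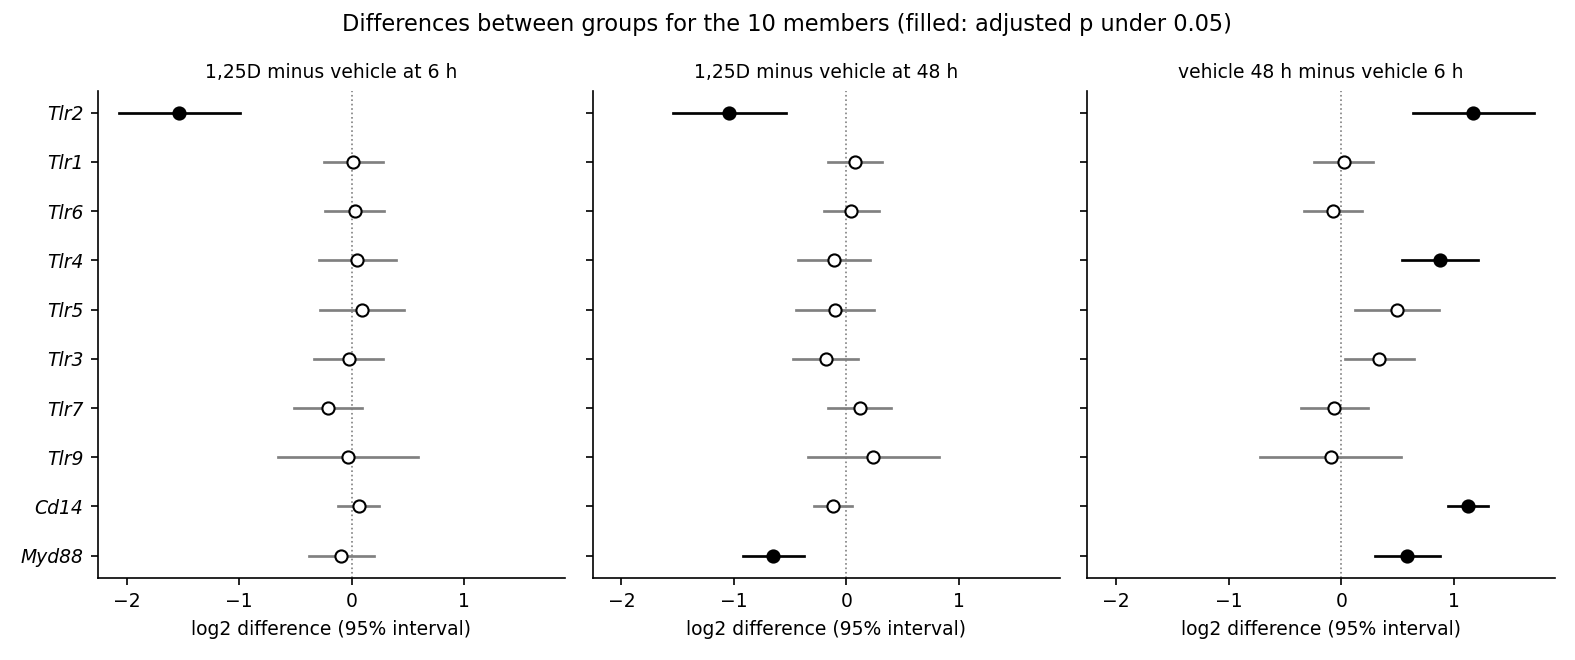
Log2 differences (horizontal axes, with bars for the 95% interval) of the 10 members for 1,25D minus vehicle at 6 h, 1,25D minus vehicle at 48 h and vehicle 48 h minus vehicle 6 h, with filled points for adjusted p under 0.05. Tlr2 is filled in all 3 panels, Myd88 in the last 2, and Cd14 and Tlr4 only in the last.

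More members were called over time in vehicle than for the hormone. At 48 h against 6 h, 4 of 10 members were called higher, where 9.84% of all genes were, and 0 were called lower in limma, where 8.75% of all genes were. At an unadjusted p under 0.05 there were 6 members, all higher, where 29.4% of all genes passed in either direction. Some cell type markers were called higher in the same comparison. Of 4 basal markers 1 was called, the factor Trp63 (1.14, limma adjusted p = 0.00376). Of 3 luminal markers 1 was called, the keratin Krt18 (0.30, limma adjusted p = 0.000416). Of 18 leukocyte markers 3 were called, Cd68 (1.02, limma adjusted p = 0.00112), S100a8 (0.85, limma adjusted p = 0.000232) and S100a9 (2.53, limma adjusted p = 5.12e-06). The basal markers Krt5 (-0.05), Krt14 (-0.01) and Itga6 (-0.15) and the luminal keratin Krt8 (-0.02) were not called. The part of any of these markers in the members' rise was not tested. Time and anything else that differed between the 6 h and 48 h harvests cannot be told apart. This comparison shares the vehicle 48 h arrays with 1,25D against vehicle at 48 h, and the vehicle 6 h arrays with the comparison at 6 h.

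Cd14 averaged 12.43 ± 0.03 in vehicle 48 h and 11.30 ± 0.19 in vehicle 6 h (SD, n = 3 each). It was 2.18-fold higher at 48 h, with a log2 difference of 1.13 (SE 0.08) and an adjusted p of 1.14e-06 from limma. Tlr2 differed by 1.17 (SE 0.25, limma adjusted p = 0.00601), and by 0.93 without the 2 arrays that stood apart (limma adjusted p = 0.0154). Cd14, Tlr4 and Myd88 also kept their calls without those arrays. Tlr4 averaged 8.20 ± 0.20 in vehicle 48 h and 7.33 ± 0.17 in vehicle 6 h (SD, n = 3 each), a difference of 0.88 (SE 0.16, adjusted p = 0.00187 in limma). Myd88 was 1.5-fold higher, by 0.59 (SE 0.13, limma adjusted p = 0.0097).

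The second Tlr4 probe set differed by 0.77 but was not called (adjusted p = 0.0518 in limma). The remaining, dimmer Tlr4 probe sets differed by 0.67 (limma adjusted p = 0.43) and 0.09 (limma adjusted p = 0.659). Neither was called, and their groups overlapped. Tlr5 differed by 0.49 (limma adjusted p = 0.0877) and Tlr3 by 0.34 (limma adjusted p = 0.177), with every vehicle 48 h array above every vehicle 6 h array for both. The second Tlr3 probe set was called, with a difference of 0.75 (adjusted p = 0.0137 in limma), so the probe sets of Tlr3 disagree on the call. Non-overlapping arrays, higher at 48 h, were found for 6 of 10 members, against 15.8% of all genes, and 1 member, Tlr6, lay lower on every array, against 15.2% of all genes.

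For Tlr2 and Myd88, the members called for both, the vehicle difference of 48 h minus 6 h and the 1,25D difference at 48 h stood side by side as 1.17 and -1.04 for Tlr2 and 0.59 and -0.65 for Myd88. Both differences use the vehicle 48 h arrays, so their opposite signs are not independent. The 1,25D difference at 6 h was -1.53 for Tlr2 and -0.09 for Myd88. With 1,25D the mean of Tlr2 was 7.47 at 6 h and 9.13 at 48 h, and that of Myd88 was 9.10 and 9.13. These changes over time with 1,25D were not tested. Cd14 and Tlr4 had 1.13 and 0.88 for time, and -0.12 and -0.11 for 1,25D at 48 h.

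Over the 13 arrays, the 5 genes whose log2 signal was most like that of Tlr2 were Adgrl2 (Pearson r = 0.978), Litaf (0.966), Stat3 (0.96), Sertad4 (0.959) and Egr1 (0.942). Of these 5, Egr1, an immediate early transcription factor, had the largest 1,25D difference at both times. It differed by -2.09 on the log2 scale at 6 h (limma adjusted p = 4.06e-05) and by -0.88 at 48 h (limma adjusted p = 0.0163). Adgrl2 and Litaf were also called lower at both times, Stat3 only at 6 h and Sertad4 only at 48 h. Those most like Myd88 were Fibin (0.961), Cmtm3 (0.96), Csn1s1 (0.949), Bbox1 (0.948) and Igsf5 (0.945). Bbox1, the last enzyme of carnitine synthesis, had the largest 1,25D difference of this set at 48 h. It differed by -2.71 on the log2 scale at 48 h (limma adjusted p = 0.000394) and by -0.19 at 6 h (limma adjusted p = 0.972). Fibin, Cmtm3, Csn1s1 and Igsf5 were also called lower at 48 h and not called at 6 h. Between members, the pairs most alike were Tlr4 and Cd14 (r = 0.95) and Tlr1 and Tlr9 (r = 0.839), and Tlr2 and Myd88 had r = 0.675. Without the 2 arrays that stood apart, r was 0.944 for Tlr4 and Cd14, 0.558 for Tlr1 and Tlr9, and 0.747 for Tlr2 and Myd88. These values are descriptions over arrays that share the 4 groups.

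The partners of the receptors were mostly not called for the hormone. The counts at an unadjusted p under 0.05 below stand against 7.01% of all genes at 6 h and 10.3% at 48 h. Of 9 co-receptors and chaperones, such as Ly96 and Lbp, 0 were called by limma at either time, with 0 at 6 h and 2 at 48 h at an unadjusted p under 0.05. Of 17 adaptors and kinases, 0 were called at either time, with 3 at 6 h and 2 at 48 h at an unadjusted p under 0.05. The other 3 Toll-like receptors measured, Tlr8, Tlr12 and Tlr13, had 0 calls in limma and 0 at an unadjusted p under 0.05. The same held for the 6 measured receptors of the interleukin-1 family, not all of which signal through Myd88. Lbp, the lipopolysaccharide-binding protein that loads Cd14, was higher by 2.52 in vehicle 48 h than in vehicle 6 h (limma adjusted p = 4.41e-07), and was chosen after its values were seen.

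Of 14 restraints of the pathway, 1 was called at 6 h and 0 at 48 h, with 4 and 3 at an unadjusted p under 0.05. The gene called was Nfkbia, the inhibitor of NF-kB. It read 12.52, 12.61 and 12.52 with 1,25D at 6 h, against 11.82, 11.49 and 12.01 with vehicle, a rise of 0.78 (limma adjusted p = 0.00395). Of 13 transcription factors, 1 was called at each time, the AP-1 subunit Fos, with 6 at 6 h and 4 at 48 h at an unadjusted p under 0.05. At 6 h these were Nfkb2 (-0.61), Irf1 (-0.58), Relb (-0.54) and Rela (-0.37), all lower, and Fos and Jun (0.46), both higher. At 48 h they were Relb (-0.54), Rela (-0.47) and Jun (-0.32), all lower, and Fos, higher. The list's median difference was -0.191 at 6 h and -0.061 at 48 h. Fos rose by 0.57 at 6 h (limma adjusted p = 0.0146) and by 0.67 at 48 h (limma adjusted p = 0.00146), and its call at 6 h was lost without 1,25D replicate 1 or 3 or vehicle replicate 2. Without the 2 arrays that stood apart, Socs3, Nfkb2 and Ikbke were also called at 6 h, all lower.

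Of 21 response genes, which Toll-like receptors induce in many cells, 0 were called higher and 3 lower at 6 h, and 3 were called higher and 4 lower at 48 h. Over all genes 0.687% were called higher and 0.165% lower at 6 h, and 1.43% higher and 0.951% lower at 48 h. The list's median difference was -0.127 at 6 h and -0.059 at 48 h. At an unadjusted p under 0.05 limma found 9 of them at 6 h and 13 at 48 h.

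Il6, an inflammatory cytokine, read 5.88, 5.89 and 6.04 with 1,25D at 6 h, against 7.39, 7.50 and 7.62 with vehicle, and fell by 1.56 (limma adjusted p = 0.000116). At 48 h it read 8.48, 8.20, 8.37 and 8.29 with 1,25D, against 7.82, 8.31 and 7.87 with vehicle, and was not called. Ch25h, which makes 25-hydroxycholesterol, fell by 1.77 at 6 h (limma adjusted p = 2.37e-05) and by 0.61 at 48 h (limma adjusted p = 0.0337), a call lost without any 1 vehicle 48 h array or without 1,25D 48 h replicate 1, 2 or 3 (limma adjusted p up to 0.226). Ptx3, a soluble pattern recognition protein, fell by 1.62 at 6 h (limma adjusted p = 0.000835).

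Acod1, which produces the metabolite itaconate, was the response gene with the largest 1,25D difference at 48 h. It read 8.03, 7.59, 7.46 and 6.91 with 1,25D, against 10.01, 10.11 and 9.90 with vehicle, and fell by 2.51 (limma adjusted p = 1.25e-05). Icam1, a leukocyte adhesion molecule, fell by 1.08 (limma adjusted p = 0.000553), and Nfkbiz, a nuclear cofactor of NF-kB, rose by 0.81 (limma adjusted p = 0.0016). Ptgs2, which makes prostaglandins, rose by 1.05 (limma adjusted p = 0.0052), the chemokine Ccl20 fell by 1.09 (limma adjusted p = 0.00412), and the acute phase protein Saa3 rose by 0.35 (limma adjusted p = 0.048), a call lost without any 1 array of the 48 h groups (limma adjusted p up to 0.232) and without the 2 arrays that stood apart (0.35, limma adjusted p = 0.0712). These last 3 lie past the limit of 6 names per list and were chosen after their values were seen. In vehicle, 12 of the 21 were called higher and 2 lower at 48 h than at 6 h, where 9.84% of all genes were called higher and 8.75% lower, with a list median of 0.498 against -0.026 over all genes.

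**Figure D4:**
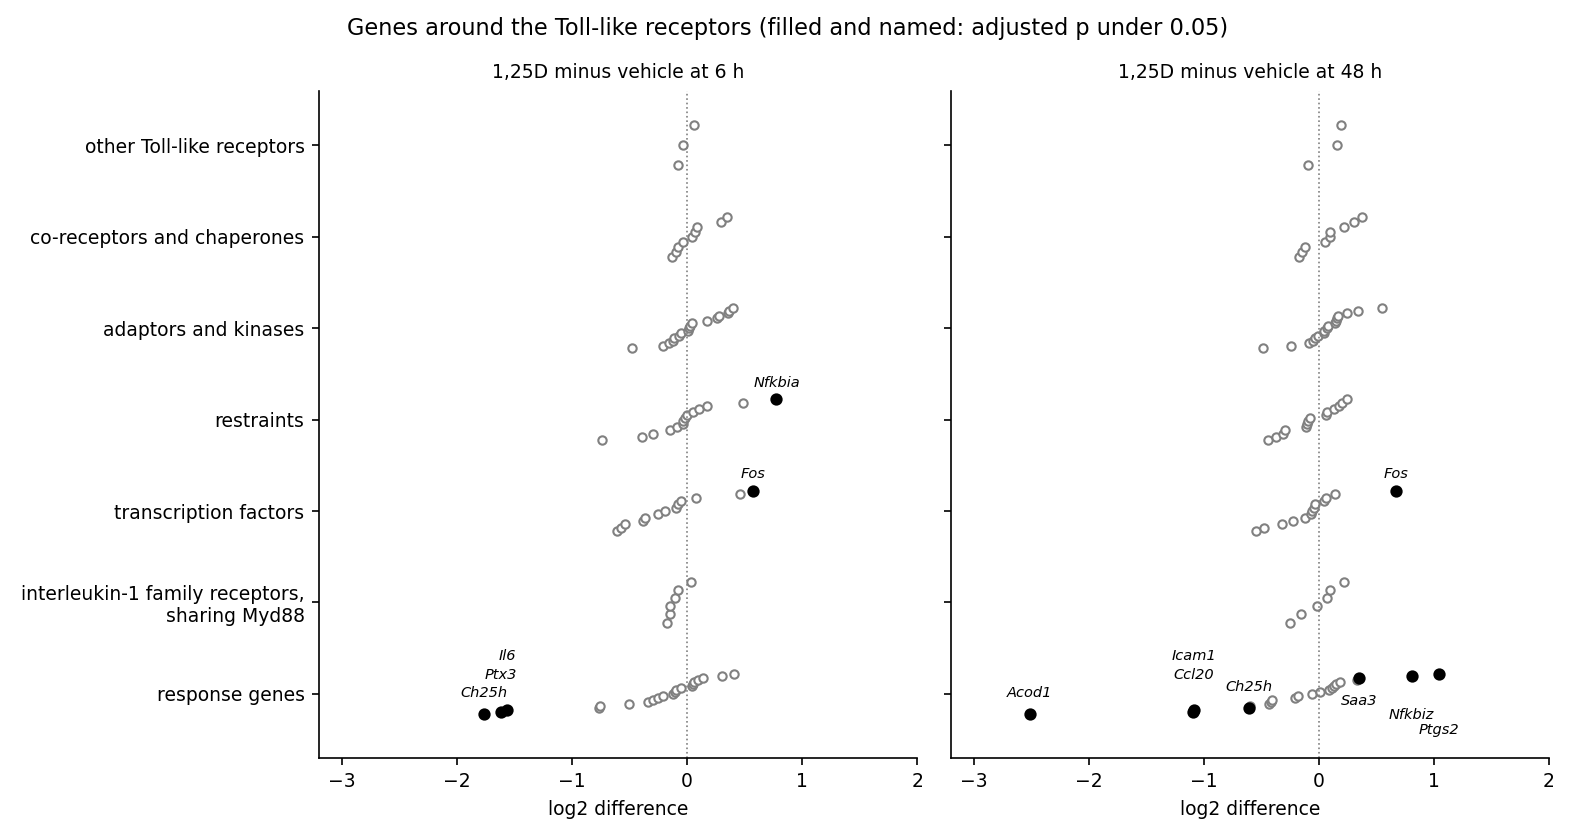
Log2 differences (horizontal axes) of 1,25D minus vehicle at 6 h and at 48 h for genes around the receptors, 1 point per gene, in rows by list, with filled and named points for adjusted p under 0.05. The rows of receptors, co-receptors and adaptors hold no filled point, and the response genes hold filled points on the lower side at 6 h and on both sides at 48 h.

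Leukocyte markers were measured beside these results because leukocytes carry much Tlr2, Cd14 and Myd88. Of 20 leukocyte markers 18 were measured, and 4 of them, Ptprc, Adgre1, Itgam and Itgax, stayed under the 40th percentile of probe sets on every array. The others did not, and ranged from Mrc1 (32.2nd to 43.0th) to S100a8 (94.5th to 99.1st). Between them lay Csf1r (63.2nd to 70.6th), Cd3e (62.4th to 71.6th) and Flt3 (68.1st to 73.2nd). The summed log2 signal of the 18 ranged from 104.41 to 106.16 with 1,25D and from 104.03 to 108.56 with vehicle at 6 h. At 48 h it ranged from 110.0 to 114.92 with 1,25D and from 108.94 to 109.87 with vehicle. Within it, the sums of the myeloid and neutrophil markers did not overlap between these groups at 48 h and were higher with 1,25D. Ptprc and the sums of the dendritic, T cell and B cell markers overlapped. Of the 18, 0 were called for 1,25D at 6 h in limma and 3 were called higher at 48 h, Cd68 (1.23), S100a8 (0.88) and S100a9 (0.92), all of which epithelia can also express. These 3 leukocyte list genes were thus higher at 48 h where Tlr2 and Myd88 were lower. The luminal keratins Krt8 (-0.43) and Krt18 (-0.34) were called lower in that comparison, the direction of Tlr2 and Myd88. Over time in vehicle Cd68, S100a8 and S100a9 were called higher, the direction of Tlr2, Myd88, Cd14 and Tlr4. The part of any of these markers in the results was not tested.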

How the data were processed

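Cultured mouse prostate progenitor/stem cells were measured on 13 arrays. The authors' deposited values are log2 signals between 3.05 and 14.45. The submitters' processing notes name MAS5 without a role, and how the values were normalized is not given in the sources used here. The values were used as given. No detection calls were used, and precision is limited by how many arrays there are. The design text names a smaller chip of the same family than the 45101 probe sets deposited.

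After 64 control sets were removed, 45037 probe sets were tested: 34945 had 1 symbol in the platform annotation, 932 several and 9160 none. Groups were read from sample titles. A model with 1 mean per group was fitted to the 13 arrays together with limma 3.58.1 (R 4.3.3; lmFit, eBayes with an intensity trend, two-sided), with Benjamini-Hochberg adjustment. Exact permutation tests used scipy 1.17.1 (Python 3.11.15) and figures matplotlib 3.10.9. Each fit was first tested on simulated data.

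The members and lists were chosen with earlier results of these data known. Of 94 list entries 83 were measured, and the others were not analysed here. All members were named, up to 6 called genes per list by adjusted p, and the 5 genes most like each called member. The alternatives tried were other scalings, offsets, filters, fits and probe sets, a replicate block, and each array left out.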

Additional observations from a re-analysis of the deposited data

Results flagged for a closer look

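In 1,25D 48 h, the group of 4 arrays, 1 array lay far from the other 3 for 5 of the 21 genes tested, by a gap divided by the range above Dixon's 95% critical value. Chance flags about 1 group in 20, and these genes share the same arrays. Replicate 4 was the high array for Tlr1 (gap share 0.867), Tlr7 (0.891) and Tlr9 (0.912). Replicate 2 was the high array for Tlr2 (0.872) and Ptgs2 (0.863). Without replicate 2 the Tlr2 difference at 48 h was -1.19, with an adjusted p of 0.0268 from limma.

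The 1,25D response differed between 48 h and 6 h for 4 response genes by limma's test of the difference. The response at 48 h minus that at 6 h was 1.90 for Il6 (adjusted p = 0.000559), 1.16 for Ch25h (adjusted p = 0.0161), 0.69 for Saa3 (adjusted p = 0.0198) and -2.01 for Acod1 (adjusted p = 0.0115).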

How the results depend on the processing

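At 6 h the count of members called for 1,25D was 1, and it was 0 when only the 2 groups compared were fitted (Tlr2 adjusted p = 0.0966 in limma) and 0 to 1 when each array was left out. At 48 h the count was 2. It was 1 with median centring (Tlr2 adjusted p = 0.0568), 1 with no intensity trend (Tlr2 adjusted p = 0.0585), 1 with only the 2 groups compared (Myd88 adjusted p = 0.0717), and 0 to 2 when each array was left out. Tlr2 lost its call at 48 h without 1,25D 48 h replicate 1, 3 or 4, any vehicle 48 h array, 1,25D 6 h replicate 1 or 3, or vehicle 6 h replicate 3. With the replicate number as a block, 1 member was called at 48 h, with Myd88 at -0.56 (adjusted p = 0.0849 in limma). The deviations of same-numbered arrays correlated at 0.273, 0.227 and 0.022 at 6 h and at 0.037, -0.523 and 0.405 at 48 h, so the numbers were not taken as pairs. Over time in vehicle, Myd88 lost its call without vehicle 48 h replicate 2 (adjusted p = 0.0535). No called member changed sign in any setting tried: of 902 recomputed member values, 880 kept their side of the threshold, 20 were no longer called, 1 was newly called and 1 moved. Among the listed genes, Fos lost its call at 6 h without 1,25D 6 h replicate 1 or 3 or vehicle 6 h replicate 2 (adjusted p up to 0.0985). Ch25h (up to 0.226) and Saa3 (up to 0.232) lost theirs at 48 h in several omissions, and Ccl20 was called at 6 h without vehicle 6 h replicate 3 (-1.0, adjusted p = 0.0065). Dim members such as Tlr1 and Tlr7 lie near the low end of the signal, where differences may be understated.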
